A study of Mus musculus with 6 samples.

Results

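The collagen genes encode the alpha chains from which all collagens are built. Genes were taken as collagens where their symbol has the form of an alpha chain (Col, a type number, a, a chain number) and a probe set on the array carries that symbol alone. This gave 42 genes of the 18193 measured, read by 82 probe sets, and the brightest probe set stood for each gene. RefSeq's mouse annotation (GRCm38.p6) lists 44 such genes, and Col28a1 and Col6a6 were not analysed here. The 42 genes fell into 8 fibrillar, 9 basement membrane and 7 cartilage genes and 18 others.

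The arrays come from mouse mesenchymal stem cells of a commercial supplier, grown on plastic. All 6 cultures, controls included, received rosiglitazone (1 µM; the labels spell it roziglitazone), insulin (5 µg/ml), isobutylmethylxanthine (100 µM) and dexamethasone (1 µM), a mixture that drives fat cell formation, added again 48 h before the exposure. Genotype, strain and animal age are not given in the labels, and all cells come from 1 commercial product. The study ran 3 independent experiments, each with 1 culture under a continuous terahertz laser beam (2.52 THz, a wavelength of 118.8 µm) for 2 h and 1 unexposed control culture next to it. Both stood at 26 to 27 °C, and RNA was taken right after the exposure, so there are 3 irradiated and 3 control arrays. Values are RMA levels on the log2 scale, on which 1 unit is a doubling. Since probes differ in how well they bind, a level places a gene on the scale of the array and gives no ratio between genes.

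Every collagen is made of 3 alpha chains wound into a triple helix. Fibrillar collagens assemble into the banded fibrils of connective tissue, type IV collagen forms the sheet-like network of basement membranes, type VI collagen forms beaded filaments around cells, and the FACIT collagens sit on fibril surfaces. Mesenchymal stromal cells are known for secreting type I and type III collagen, whereas fat cells are surrounded by a basement membrane of type IV collagen and by type VI collagen.

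The cultures carried markers of several cell types. Of 8 measured stromal markers 7 were at or above the level of the median gene (6.46), but Thy1, a defining one, lay at 3.88. All 7 measured adipocyte markers and all 6 macrophage markers were at or above that of the median gene. So were 4 of 5 smooth muscle and myofibroblast markers and 2 of 3 measured osteoblast markers. This compared with 0 of 5 endothelial, 1 of 5 epithelial and 1 of 7 chondrocyte markers. The mean of the adipocyte markers ran from 11.93 to 12.29 in the controls and from 11.78 to 12.13 in the irradiated cultures. That of the macrophage markers ran from 11.14 to 11.38 and from 10.99 to 11.65. The array medians lay between 5.01 and 5.04. The experiment 3 control stood apart in how much brighter the 3′ than the 5′ control probe sets were, by 0.68 for actin against 0.50 to 0.57 on the other arrays and by 0.11 for Gapdh against -0.10 to -0.08. With arrays, precision is limited by their number, here 6. In bulk RNA fewer cells of a type and less RNA per cell cannot be told apart.

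The sequences before the start sites of the type VI chains and of Col1a2 are shown for their differences in experiment 2. The 3 type VI chains had like differences in every experiment, and Col1a2 went the other way in experiment 2 (0.30 against -0.46 to -0.40). In experiment 1 Col1a2 lay near them (-0.11 against -0.10 to 0) and in experiment 3 on the same side of 0 (0.09 against 0.25 to 0.36). Each stretch holds the 250 bases before the RefSeq start (GRCm38.p6), in the direction of the gene. Capitals mark CCAAT and GGGCGG on either strand; TATAAA, also searched, is in none of the 4.
Col1a2 (chr6:4505368-4505617, plus strand): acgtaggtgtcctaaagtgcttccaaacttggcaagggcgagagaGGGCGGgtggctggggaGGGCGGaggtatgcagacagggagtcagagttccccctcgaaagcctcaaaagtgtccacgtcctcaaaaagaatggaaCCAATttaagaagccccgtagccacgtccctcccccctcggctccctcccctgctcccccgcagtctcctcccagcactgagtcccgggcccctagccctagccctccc
Col6a1 (chr10:76726045-76726294, minus strand): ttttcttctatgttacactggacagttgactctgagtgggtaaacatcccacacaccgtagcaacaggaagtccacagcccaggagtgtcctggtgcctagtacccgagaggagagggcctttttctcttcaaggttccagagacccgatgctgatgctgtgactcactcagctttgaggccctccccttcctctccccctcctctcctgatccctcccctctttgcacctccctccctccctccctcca
Col6a2 (chr10:76623631-76623880, minus strand): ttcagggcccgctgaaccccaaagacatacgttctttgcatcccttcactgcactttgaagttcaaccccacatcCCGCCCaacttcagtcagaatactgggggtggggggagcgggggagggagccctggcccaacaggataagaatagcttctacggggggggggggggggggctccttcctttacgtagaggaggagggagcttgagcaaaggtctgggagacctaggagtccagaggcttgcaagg
Col6a3 (chr1:90843972-90844221, minus strand): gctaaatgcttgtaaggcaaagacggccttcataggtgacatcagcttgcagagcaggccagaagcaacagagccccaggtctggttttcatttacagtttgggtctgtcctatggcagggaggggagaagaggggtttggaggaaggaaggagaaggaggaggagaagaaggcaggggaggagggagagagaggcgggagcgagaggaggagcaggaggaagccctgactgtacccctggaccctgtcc

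Col1a2 holds 1 CCAAT and 2 GGGCGG, and Col6a2 holds 1 CCGCCC, which is GGGCGG read on the other strand. Col6a1 and Col6a3 hold none of the 3 motifs in this stretch. Among collagens at or above the median gene, CCAAT was also in this stretch of Col4a1, Col4a2, Col18a1, Col11a1 and Col16a1. The irradiated culture of experiment 2 was lower in Col4a1, Col4a2 and Col18a1 and higher in Col11a1 and Col16a1. Col1a1 had no start window. Whether these motifs bear on the differences was not tested. Col6a1 and Col6a2 lie on chromosome 10 and Col6a3 on chromosome 1. Col6a2 has 2 annotated starts, and the stretch before the upstream one is shown.

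Col4a1 and Col4a2 share their start region. They lie head to head on chromosome 8, on opposite strands, and their first transcribed bases in RefSeq overlap by 22 bases (chr8:11312805-11312826), shown here as each gene reads them. The GGGCGG in these 22 bases, in capitals, lies after both starts, outside the bases searched below. In the 250 bases before its own start Col4a2 also holds GGGCGG, and both genes hold CCAAT there.
Col4a2 (plus strand): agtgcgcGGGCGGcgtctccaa
Col4a1 (minus strand): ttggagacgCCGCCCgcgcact
Over all collagen genes, 33 of 42 had at least 1 start window, 36 windows in all, of which the 250 bases before the start were searched on both strands. GGGCGG was in 58.3% of these stretches against 32.7% of the same stretch of all 32851 windows, CCAAT in 36.1% against 33.8%, and TATAAA in 13.9% against 12.4%. A match is a description of the letters and no measured binding site.

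On the array, 18 of the 42 collagen genes lay at or above the level of the median gene and 24 below it. The split ran between Col7a1 (6.43) and Col15a1 (6.49). The members covered nearly the whole scale, with 3 in the top 1% of all genes and 8 in the top 5%. Fibrillar genes were bright, with 6 of 8 at or above the median gene. Of the 9 basement membrane genes 4 were, of the 18 others 7, and of the 7 cartilage genes 1.

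Among the fibrillar genes Col1a2, a chain of type I collagen, the main collagen of bone, skin and tendon, had the highest level of all 42. It stood at 13.9, 13.47 and 13.56 in the controls of experiments 1 to 3 and at 13.79, 13.77 and 13.65 in the irradiated cultures. Col3a1, the only chain of type III collagen, stood at 12.47, 12.47 and 12.2 against 12.44, 12.45 and 12.49. In both genes the control values spread more widely than the irradiated ones and the groups overlapped. Col5a2 and Col5a1, chains of type V collagen, which sits inside type I fibrils and sets their width, had mean levels of 11.84 and 11.10. Col27a1 lay at 7.29, and Col5a3 (5.84) and Col24a1 were below the median gene.

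In the basement membrane class the ubiquitous chain pair of type IV collagen was bright and the tissue-restricted chains were dim. Col4a1 had a mean of 11.62 and Col4a2 of 9.71, whereas Col4a5 (5.48), Col4a6 (4.18), Col4a3 (4.02) and Col4a4 (2.98), the chains of kidney, eye and ear basement membranes among others, were all below the median gene. Col18a1, whose end piece is endostatin, lay at 7.73, Col15a1, its relative, at 6.49, and Col7a1, the chain of the anchoring fibrils of skin, at 6.43.

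Cartilage collagens were dim except for 1 chain. Col11a1, a type XI chain that many connective tissues also use in type V fibrils, had a level of 10.31, 9.92 and 10.18 in the controls and of 10.48, 10.42 and 9.92 in the irradiated cultures. Col2a1, the main cartilage collagen, had a mean level of 5.85, Col9a1 of 5.36, Col9a3 of 5.16, Col11a2 of 4.51, Col9a2 of 4.50 and Col10a1, a marker of hypertrophic cartilage, of 3.49. The cartilage markers Acan (4.71) and Sox9 (6.12) were below the median gene too, whereas Comp (6.84) was above it.

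Of the remaining genes the type VI chains were brightest. Col6a3 had a mean level of 12.60, Col6a2 of 12.54 and Col6a1 of 11.52. They were followed by Col12a1, a FACIT chain of dense connective tissue, at 9.73, Col8a1 at 8.36, Col8a2 at 7.65 and, between these 2, Col16a1. The 11 others, among them all 4 transmembrane collagens (Col13a1, Col17a1, Col23a1 and Col25a1) and the type VI chains Col6a4 and Col6a5, lay between 2.36 and 5.90.

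**Figure D1:**
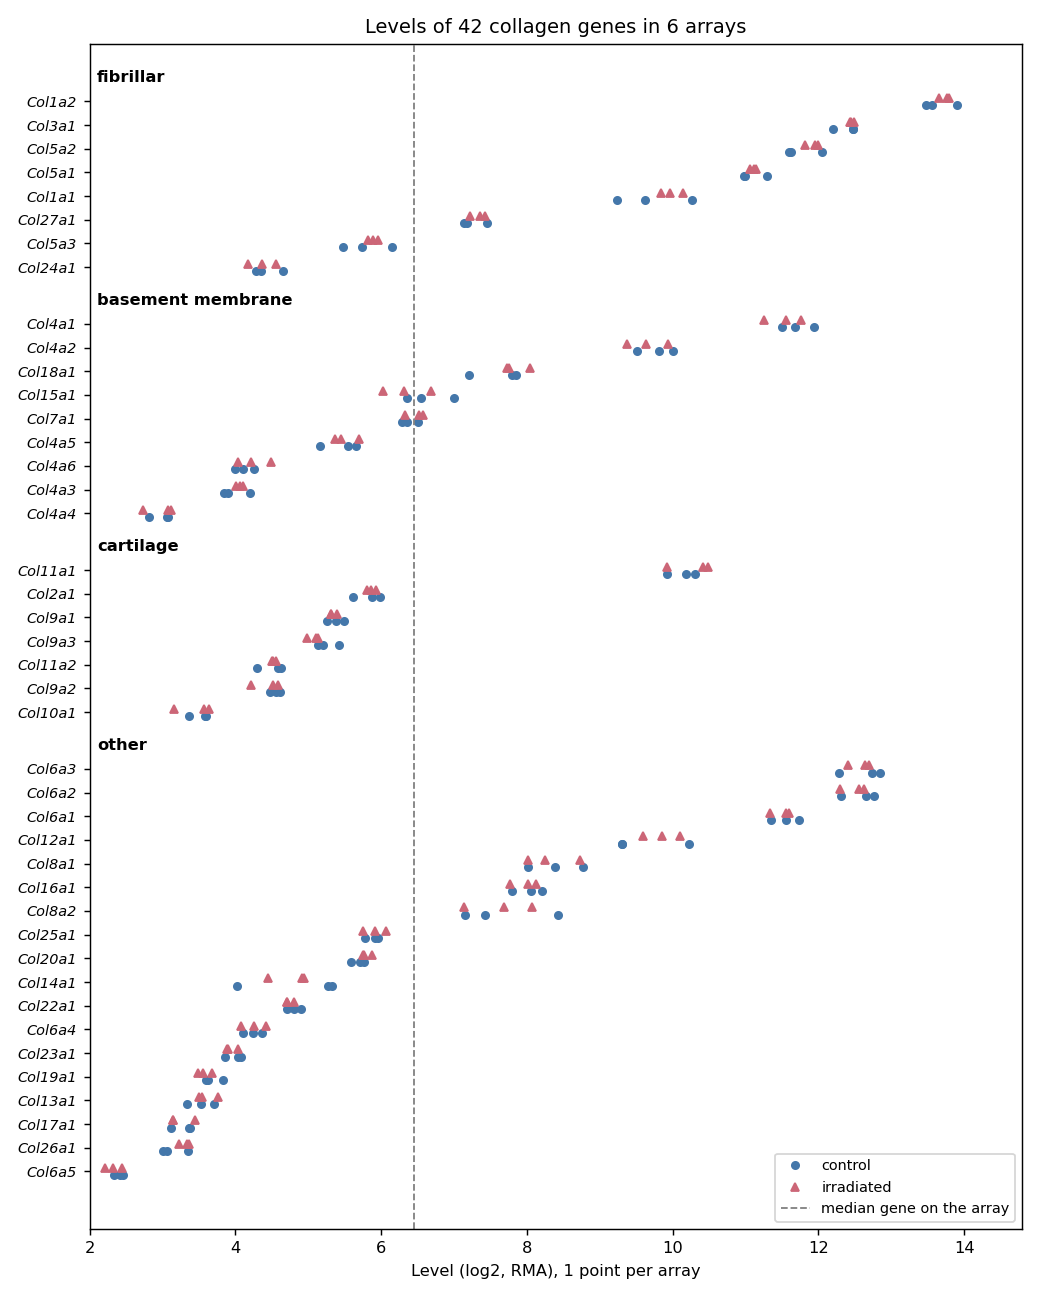
Level of each of the 42 collagen genes on the 6 arrays, by class, with 1 point per array on the log2 RMA scale (circles, control; triangles, irradiated) and the median gene at 6.46 as a dashed line. The 18 genes whose mean lies right of the line include 6 of 8 fibrillar genes and 1 of 7 cartilage genes.

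Irradiation gave no collagen gene that passed the test. With each experiment treated as a block, limma with Benjamini-Hochberg adjustment over all genes called 0 of 42, as it called 0 of 18193 (0%), and every collagen gene had an adjusted p of 0.995. At an unadjusted p under 0.05 it gave 1 collagen gene, Col15a1, where 3.31% of all genes reached that level. The median difference over the 42 genes was 0.0033 log2 units, against -0.010 over all genes, with 21 above 0 and 21 below. In 2 genes, Col7a1 and Col20a1, the irradiated culture was higher in all 3 experiments (8.23% of all genes) and in 2, Col15a1 and Col9a3, lower in all 3 (12.8% of all genes). The other probe sets of Col20a1 had mean differences of 0.023, -0.047 and -0.12, each from experiments of mixed sign. In no collagen gene were the 3 irradiated values all above or all below the 3 controls, which was so for 2.90% and 5.36% of all genes.

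For p-values, standard errors and intervals limma draws each gene's spread over the 3 experiments towards that typical of all genes. The confidence intervals bound what was missed only as far as that spread suits the collagens. For all 42 genes the 95% interval of irradiated minus control lay within 2-fold either way, and for 40 within 1.5-fold. The exceptions were Col1a1 and Col18a1, whose upper ends were 0.64 and 0.66 log2 units. These intervals are per gene, and RMA tends to understate changes of dim probe sets. Collagens at or above the median gene spread more widely than all genes at that level (median SD of the 3 differences 0.33 against 0.12). For widely spread genes the 3 pairs alone would give wider intervals, larger standard errors and larger p-values.

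Col15a1 was lower in each irradiated culture than in its control. Its levels were 7.0, 6.54 and 6.36 in the controls and 6.68, 6.02 and 6.32 in the irradiated cultures, differences of -0.32, -0.52 and -0.04. The mean was -0.29 (limma SE 0.11, n = 3 pairs, unadjusted limma p 0.0309, 0.995 after Benjamini-Hochberg adjustment), and the groups overlapped.

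Among members at or above the median gene, the largest mean differences upwards were those of Col1a1 (0.27, SE 0.16), Col12a1 (0.24, SE 0.13), Col18a1 (0.22, SE 0.18), Col5a2 (0.16, SE 0.11) and Col11a1 (0.14, SE 0.14). Downwards, after Col15a1, came Col4a1 (-0.18, SE 0.16), Col4a2 (-0.12, SE 0.16), Col6a2 (-0.080, SE 0.14) and Col16a1 (-0.057, SE 0.11). Except for Col15a1, each of these means was within 2 standard errors of 0 and came from experiments of opposite sign. Without experiment 2 the means were 0.045 for Col1a1, 0.08 for Col12a1, 0.045 for Col5a2 and -0.045 for Col11a1.

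Within single experiments the bright collagens differed widely between the irradiated culture and its control, and in opposite directions. In experiment 2, 15 of the 18 members at or above the median gene differed by more than 0.2 log2 units (83.3%), 9 upwards and 6 downwards, where 20.4% of all 9099 genes at that level did. In experiment 3 it was 61.1% of members (7 upwards and 4 downwards) against 18.1% of genes, and in experiment 1 it was 11.1% against 13.4%. The SD of the 3 differences had a median of 0.33 in the members and 0.12 in all genes at that level, and 11 of the 18 members were in the top 10% of genes. Over all 42 collagen genes 15 were in the top 10% of all genes in this SD. These are descriptions with no test.

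**Figure D2:**
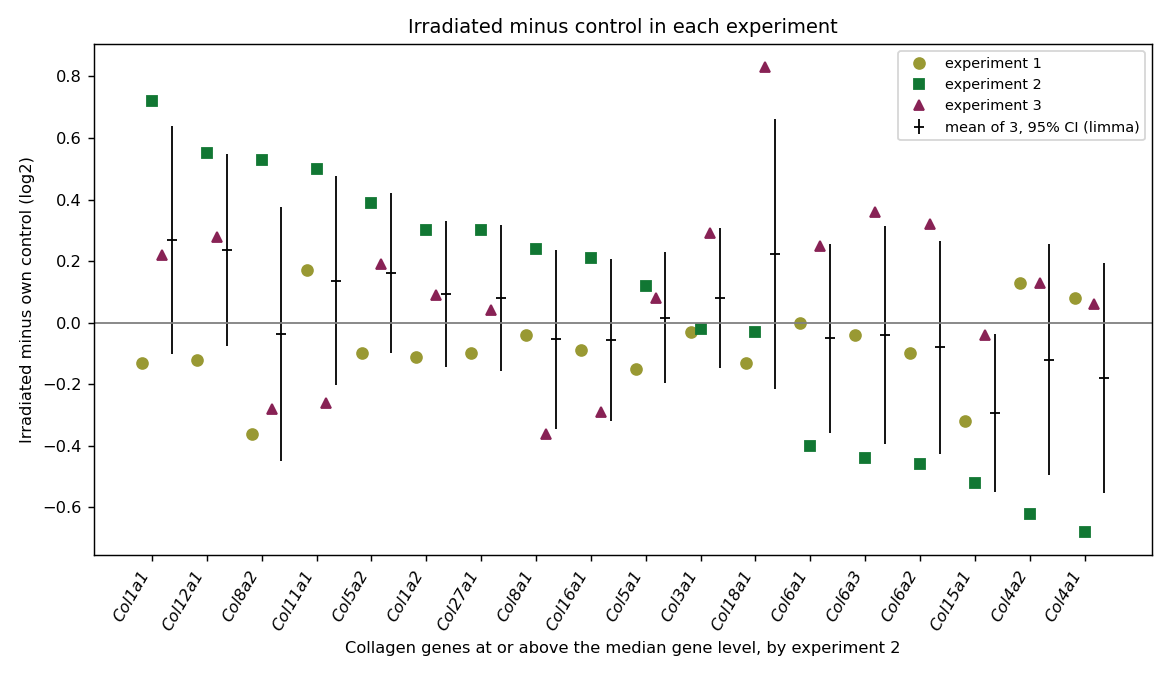
Irradiated minus own control (log2 units) for the 18 collagen genes at or above the median gene, ordered by experiment 2, with 1 symbol per experiment and the mean of the 3 with its 95% confidence interval from limma. In experiment 2 the values run from 0.72 for Col1a1 to -0.68 for Col4a1, and 17 of the 18 intervals include 0.

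Fibrillar genes were lower in the irradiated culture of experiment 1 and mostly higher in those of experiments 2 and 3. In experiment 1 all 8 were below 0, with a median of -0.12. Above 0 in it were 40.9% of all genes but 29.7% of all genes at or above the median gene, where 6 of the 8 lay. The median of all genes at that level was -0.05. In experiment 2, 7 of 8 were above 0 (median 0.21, against 47% of all genes above 0). In experiment 3 it was all 8 (median 0.21, against 48.9%), so none kept 1 sign. Over the 3 experiments the median was 0.087, with 7 above 0 and Col24a1 at -0.060, and without experiment 2 it was 0.0175.

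Col1a1, the other chain of type I collagen, had the widest differences of the class. Its levels were 10.27, 9.24 and 9.62 in the controls (9.71 ± 0.52, SD, n = 3) and 10.14, 9.96 and 9.84 in the irradiated cultures (9.98 ± 0.15). The irradiated values lay inside the range of the controls, and the differences were -0.13, 0.72 and 0.22. Col1a2 followed with -0.11, 0.30 and 0.09, a mean of 0.093 (SE 0.10). Both genes thus had the same order of experiments, with the size in experiment 2 larger by 0.42 units in Col1a1.

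Other probe sets read the type I chains alike. The dimmer probe set of Col1a1 (level 8.06) differed by -0.18, 0.81 and 0.5, and those of Col1a2 by -0.08, 0.5 and 0.08 (level 12.07) and by -0.03, 0.39 and 0.02 (level 5.51). All 5 probe sets were below 0 in experiment 1 and above 0 in experiments 2 and 3.

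Among the type V chains Col5a2 was at 12.05, 11.6 and 11.62 in the controls and at 11.95, 11.99 and 11.81 in the irradiated cultures, and Col5a1 at 11.29, 10.99 and 10.98 against 11.14, 11.11 and 11.06. In both genes the highest of the 6 values was the experiment 1 control and the lowest were the other two controls. Col5a3, below the median gene, differed by -0.26, 0.08 and 0.49. Col3a1 departed from the type I chains, with differences of -0.03, -0.02 and 0.29. Its control of experiment 3, the array that stood apart in the actin and Gapdh probe sets, was its lowest value.

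In the controls the 6 bright fibrillar genes averaged 11.24, 10.82 and 10.86 in experiments 1 to 3, and in the irradiated cultures 11.14, 11.12 and 11.01. All 6 had a larger SD among controls than among irradiated cultures, as did 14 of the 18 bright members and 53.7% of all genes at that level. The SD of the 3 controls had a median of 0.24 in the 18 members against 0.083 in all genes at that level, and 14 of the 18 were in the top 10%. For the irradiated cultures the medians were 0.17 and 0.076, with 7 in the top 10%.

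Type IV collagen was lower in the irradiated culture of experiment 2. Col4a1 was at 11.68, 11.94 and 11.5 in the controls and at 11.76, 11.26 and 11.56 in the irradiated cultures, so that experiment 2 held both the highest value, its control, and the lowest, its irradiated culture. Col4a2 was at 9.81, 10 and 9.51 against 9.94, 9.38 and 9.64, with the same 2 arrays at the extremes. The differences were 0.08, -0.68 and 0.06 for Col4a1 and 0.13, -0.62 and 0.13 for Col4a2, so they were at most 0.07 apart in any experiment. For Col6a2 and Col6a3, which lie on different chromosomes, the largest gap was 0.06. Whether the start region that Col4a1 and Col4a2 share bears on their differences was not tested. The dimmer probe set of Col4a1 gave -0.03, -0.7 and 0.3. Without experiment 2 the means were 0.07 for Col4a1 and 0.13 for Col4a2, on the other side of 0. The 4 dim type IV chains lay between -0.10 and 0.29 in experiment 2.

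The 3 main chains of type VI collagen, which are assembled into 1 molecule, had irradiated minus control differences that lay within 0.11 log2 units of each other in every experiment. Col6a1 stood at 11.56, 11.73 and 11.35 in the controls and 11.56, 11.33 and 11.6 in the irradiated cultures, Col6a2 at 12.66, 12.76 and 12.31 against 12.56, 12.3 and 12.63, and Col6a3 at 12.73, 12.85 and 12.28 against 12.69, 12.41 and 12.64. Their differences were near 0 in experiment 1 (-0.10 to 0), from -0.46 to -0.40 in experiment 2 and from 0.25 to 0.36 in experiment 3. Over the 3 experiments these gave means of -0.05 (SE 0.13), -0.08 (SE 0.14) and -0.04 (SE 0.15). Without experiment 2 they were 0.125, 0.11 and 0.16, and the sign of the type VI chains thus rested on that experiment.

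**Figure D3:**
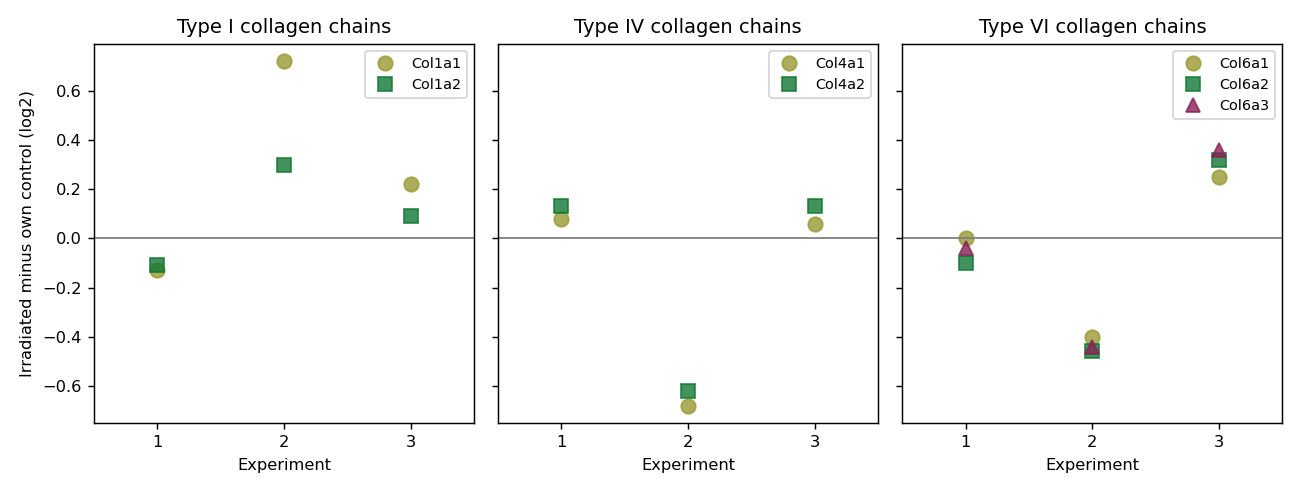
Irradiated minus own control (log2 units) by experiment for the chains of type I, type IV and type VI collagen, with 1 symbol per gene. The type IV pair and the type VI trio lie within 0.07 and 0.11 of each other in each experiment, and the type I pair is apart by 0.42 in experiment 2.

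Experiments 2 and 3 sorted the 18 bright members into groups. Above 0 in both were Col1a1, Col1a2, Col5a1, Col5a2, Col27a1 and Col12a1. Below 0 in experiment 2 and above 0 in experiment 3 were Col3a1, Col4a1, Col4a2, Col18a1, Col6a1, Col6a2 and Col6a3. The reverse held for Col11a1, Col8a1, Col8a2 and Col16a1, and Col15a1 was below 0 in both. These groups were formed after the values were seen.

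Col12a1, whose product attaches to type I fibrils, had the signs of the type I chains in each experiment. The same held for Col5a1, Col5a2 and Col27a1. Whether the attachment bears on these values was not tested. Levels of Col12a1 were 10.22, 9.3 and 9.31 in the controls and 10.1, 9.85 and 9.59 in the irradiated cultures, with differences of -0.12, 0.55 and 0.28. A dimmer probe set of Col12a1 (level 7.60) was above 0 in all 3 experiments, at 0.13, 0.46 and 0.39, and had the smallest unadjusted p of all 82 collagen probe sets, 0.0129 in limma (0.995 after Benjamini-Hochberg adjustment). The 2 dimmest ones (levels 2.91 and 2.73) stood at -0.090 and -0.047.

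Col18a1 owed its mean to experiment 3. It was at 7.85, 7.79 and 7.21 in the controls and at 7.72, 7.76 and 8.04 in the irradiated cultures, differences of -0.13, -0.03 and 0.83, and its other probe set gave -0.17, 0.02 and 0.64. The lowest value was again the control of experiment 3, and without that experiment the mean was -0.08. Whether the array's 3′ to 5′ difference bears on this value was not tested.

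Col11a1 and the type VIII chains, which form hexagonal networks in blood vessels and the cornea, were higher in the irradiated culture of experiment 2 and lower in that of experiment 3. Col11a1 differed by 0.17, 0.50 and -0.26 and its other probe set by -0.02, 0.64 and -0.06. Col8a1 was at 8.77, 8.01 and 8.38 in the controls and 8.73, 8.25 and 8.02 in the irradiated cultures. Col8a2 was at 8.43, 7.15 and 7.42 against 8.07, 7.68 and 7.14 (control SD 0.67, above that of 99.9% of all genes). The type VIII genes were picked after their values were seen. Col16a1, a FACIT chain, was at 8.21, 7.8 and 8.06 in the controls and 8.12, 8.01 and 7.77 in the irradiated cultures, with signs that alternated over the experiments.

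The dim cartilage genes had mean differences from -0.18 to 0.043. Single experiments ran from -0.44 (Col9a3, experiment 2) and -0.42 (Col10a1, experiment 3) up to 0.21 (Col10a1, experiment 1). Col2a1 was at 5.98, 5.61 and 5.88 in the controls and 5.93, 5.81 and 5.86 in the irradiated cultures, a mean of 0.043 (SE 0.087). Of the type IX chains, which decorate cartilage fibrils, Col9a3 was at 5.13, 5.42 and 5.2 in the controls and 5.11, 4.98 and 5.13 in the irradiated cultures, a mean of -0.18 (SE 0.10). Its irradiated value was lower in every experiment, with differences of -0.02, -0.44 and -0.07, and the groups overlapped. Col9a1 had a mean difference of -0.033 and Col9a2 of -0.11. The other probe sets of Col9a3 stood at 0.24 (level 2.78) and -0.18 (level 2.38), of opposite sign. Col11a2 had a mean of 0.027 (SE 0.090).

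Of the 27 collagen genes with several probe sets 18 had 1 sign in all of them and 9 did not. Among the 12 of these at or above the median gene 11 had 1 sign, the exception being Col12a1. Of all 82 probe sets limma called 0 (0% of 45037 after Benjamini-Hochberg adjustment), with 5 at an unadjusted p under 0.05, where 3.77% of all probe sets were. The irradiated and control values did not overlap in 2 of the 82, 1 higher and 1 lower when irradiated, against 3.77% and 4.63% of all probe sets.

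**Figure D4:**
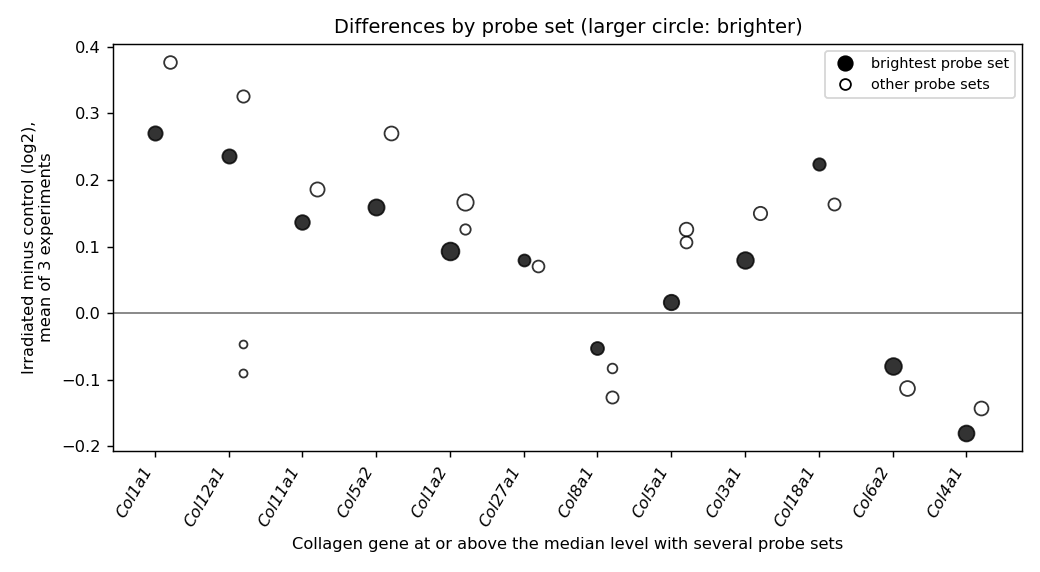
Mean irradiated minus control difference (log2 units) of every probe set of the 12 collagen genes at or above the median gene that have several, with the brightest probe set filled and circle size growing with level. The probe sets of 11 genes lie on 1 side of 0, and the 2 dimmest of Col12a1 on the other side from its brighter ones.

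Marker lists of several cell types differed between the same arrays, and others differed less. The 7 measured adipocyte markers (Fabp4, Adipoq, Lpl, Pparg, Cebpa, Cidec and Lipe) averaged 0.066, -0.51 and 0.0086 in irradiated minus control, and all 7 were below 0 in experiment 2. In this list the experiment 2 control was highest at 12.29 and its irradiated partner lowest at 11.78. Among the bright collagens the same held for Col4a1, Col4a2, Col6a1 and Col6a2. The 5 smooth muscle and myofibroblast markers (Acta2, Tagln, Cnn1, Myh11 and Postn) averaged -0.36, 0.56 and 0.50, and their highest array was the experiment 1 control at 8.86. Of these 5 only Myh11 was below the median gene. Among the bright collagens that array was also the highest for Col1a1, Col1a2, Col5a1, Col5a2, Col27a1, Col12a1, Col15a1, Col8a1, Col8a2 and Col16a1. Col15a1, Col8a1, Col8a2 and Col16a1 were not above 0 in both experiments 2 and 3. The 3 measured osteoblast markers (Sp7, Alpl and Ibsp) averaged -0.11, 0.55 and 0.45 and the 6 macrophage markers -0.15, 0.028 and 0.34. The 8 measured stromal markers averaged 0.0813, 0.111 and 0.0325 and the 7 chondrocyte markers -0.104, 0.103 and -0.141. For the 5 endothelial markers it was -0.062, 0.02 and 0.01 and for the 5 epithelial markers 0.02, 0.032 and 0.022. The part of these cell types in the collagen values was not tested.

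**Figure D5:**
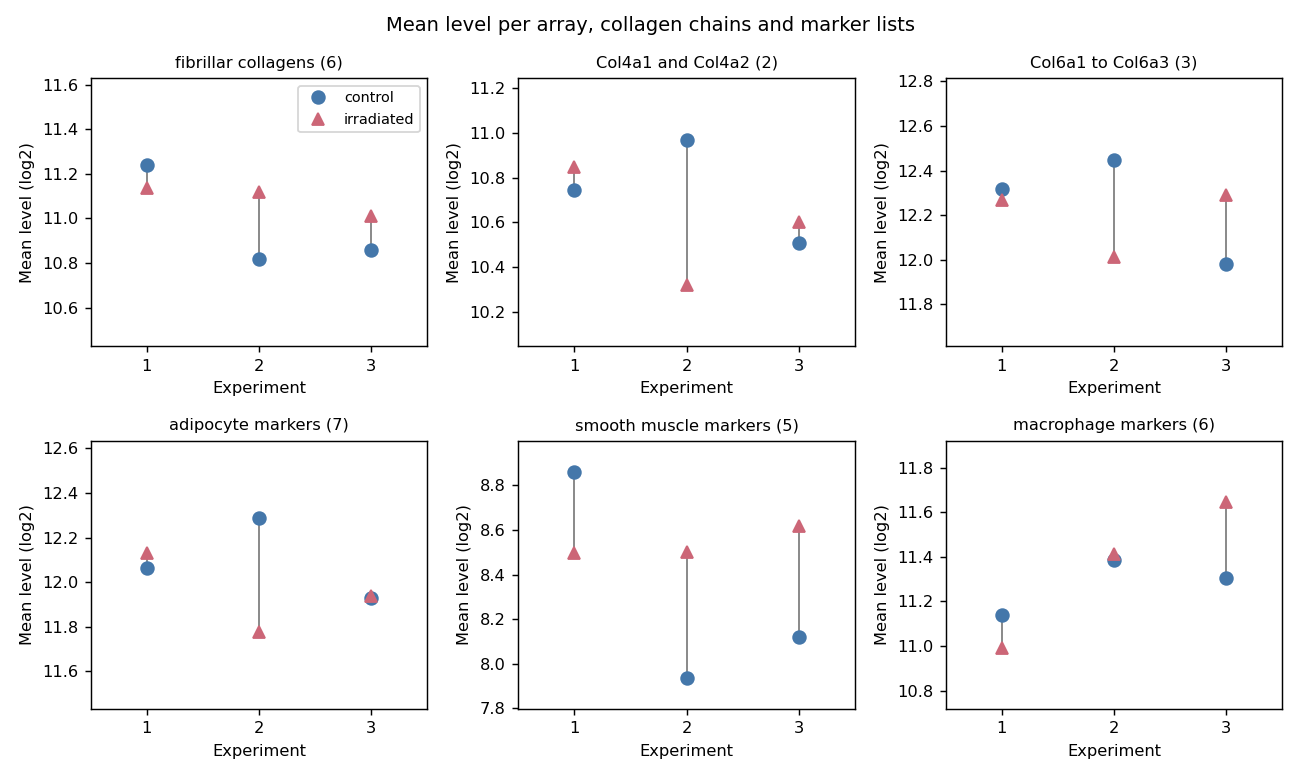
Mean log2 level per array in each experiment (circles, control; triangles, irradiated; a grey line joins each pair) for 6 bright fibrillar genes, the type IV pair, the type VI trio and 3 marker lists, each panel spanning 1.2 units. In experiment 2 the irradiated mean is lower by 0.65 for type IV, 0.43 for type VI and 0.51 for the adipocyte markers, and higher by 0.30 for the fibrillar genes.

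Genes that make, secrete and handle collagen were measured for 54 of 59 listed, and limma called 0 of them after Benjamini-Hochberg adjustment, with 0 at an unadjusted p under 0.05 (3.31% of all genes). Of the 54, 42 were at or above the median gene. The mean difference was above 0 in 33 of the 54 (61.1%, against 45.2% of all genes), with a median of 0.03 log2 units. Above 0 in all 3 experiments were 5 of the 54 and below 0 in all 3 were 4, against 8.23% and 12.8% of all genes. By experiment the median was -0.03, 0.125 and -0.04.

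The enzymes and chaperones that hydroxylate and fold the chains in the endoplasmic reticulum (17 measured) had a median of 0.027, with 9 above 0. The lysyl hydroxylase Plod2 differed by 0.03, 0.04 and -0.81, a mean of -0.25 (SE 0.17) that came from experiment 3. Its relatives Plod3 (-0.14) and Plod1 (-0.14) were also below 0. Secretion genes (9 measured) had a median of 0, and the largest value was that of Tmem38b, a cation channel of the endoplasmic reticulum, at 0.13.

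The genes that trim propeptides outside the cell (6 measured) had a median of 0.045, with Pcolce, an enhancer of that cleavage and very bright at 12.36, at 0.06 and the protease Bmp1 at 0.037. Of the 5 measured cross-linking enzymes Tgm2, a transglutaminase, was at -0.24 (0.12, -0.61 and -0.24), the lysyl oxidase relative Loxl1 at -0.16, with all 3 experiments below 0, and Loxl3 at 0.11.

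Collagen receptors and uptake genes (9 measured) had a median of 0.083. Itgb1, the beta chain of the collagen-binding integrins, was at 0.18 and the collagen-activated kinase Ddr2 at 0.15, both above 0 in all 3 experiments, and the inhibitory receptor Lair1 was at -0.20. All 8 fibril organisers were above 0, with a median of 0.11, where 45.2% of all genes were. Lum, lumican, differed by -0.06, 0.82 and 0.37, a mean of 0.38 (SE 0.16), the largest of the 54 genes, with an unadjusted limma p of 0.051 (0.995 after Benjamini-Hochberg adjustment). Fmod, fibromodulin, stood at -0.17, 0.73 and 0.01 and Fn1, fibronectin, at -0.14, 0.39 and 0.22. In experiments 1 to 3 the organisers above 0 numbered 3, 8 and 5 of 8, and without experiment 2 their median was -0.01, so its sign rested on that experiment.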

How the data were processed

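The deposited values are log2 expression levels per probe set, 1 column per culture, made by the authors with RMA (background correction, quantile normalization, probe summary); per the submitters' processing notes RMA, affy and limma were used, without stated versions. The log base is unstated and was taken from the range, 1.73 to 14.53. Quantile normalization hides a change common to all transcripts. Array batches and detection calls were not used here.

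Of 45101 probe sets 64 controls were left out, and symbols came from the platform annotation. Current symbols were checked through Entrez identifiers for all 42 members, with 0 changed. The test was limma 3.58.1 in R 4.3.3 (lmFit, eBayes), comparing irradiated with control cultures and keeping each experiment as a block, over 18193 genes or 45037 probe sets, with Benjamini-Hochberg adjusted p under 0.05. No filter on dim genes was used. Pairs follow the design text, which places each control beside its irradiated culture; deviations of same-numbered arrays correlated at 0.087, -0.065 and -0.029. The fit leaves 2 residual degrees of freedom, and eBayes added 4.66. Intervals are at 95%.

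Values in all arrays are given for the 4 brightest members of each class, the 5 per direction with the largest difference at or above the median gene, members at an unadjusted p under 0.05 and chains that share a trimer with these, in part as means and differences. Members, classes and lists were chosen with earlier results of these data known, and the bound of 0.2 units and the top 10% after the values were seen. Scripts were tested on simulated data. Start windows came from RefSeq tables; alternatives are in the closing section.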

Additional observations from a re-analysis of the deposited data

How the results depend on the processing

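limma called 0 collagen genes, 0 genes and 0 biosynthesis and handling genes under 10 alternatives, and 0 probe sets under the 9 of these that apply to probe sets, among them the fit with no replicate block and with a random replicate block (correlation -0.038); at an unadjusted p under 0.05 these gave 649 and 601 of 18193 genes and 0 and 0 collagen genes. The block changed no call. Without replicate 1, 2 or 3 that p held for 4, 1 and 2 collagen genes. Of the 21 collagen genes with values in the text by rule, 5 kept their sign in every fit without 1 experiment (Col1a1 from 0.045 to 0.47, Col5a2 from 0.045 to 0.29, Col15a1 from -0.42 to -0.18, Col9a3 from -0.255 to -0.045 and Col12a1 from 0.08 to 0.415).

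Without replicate 1, 2 or 3 in turn the means ran from -0.01 to 0.195 for Col1a2, -0.025 to 0.135 for Col3a1, -0.035 to 0.1 for Col5a1, -0.09 to 0.285 for Col5a3, -0.31 to 0.07 for Col4a1, -0.245 to 0.13 for Col4a2, -0.08 to 0.4 for Col18a1, -0.035 to 0.09 for Col2a1, -0.045 to 0.335 for Col11a1, -0.06 to 0.09 for Col11a2, -0.08 to 0.04 for Col9a1, -0.18 to 0.035 for Col9a2, -0.2 to 0.125 for Col6a1, -0.28 to 0.11 for Col6a2, -0.24 to 0.16 for Col6a3 and -0.19 to 0.06 for Col16a1. The medians ran from -0.0175 to 0.0425 for all collagen genes, 0.0175 to 0.182 for the fibrillar, 0.03 to 0.085 for the basement membrane and -0.08 to 0.075 for the cartilage class and -0.0475 to 0.0425 for the others. They ran from -0.07 to 0.04 for hydroxylation and folding, -0.025 to 0.015 for secretion, -0.0075 to 0.08 for propeptide cleavage, -0.06 to 0.11 for cross-linking, 0.065 to 0.13 for receptors and uptake and -0.01 to 0.162 for fibril organisers.

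With the mean of all probe sets of a gene the collagen median was -0.0233. With genes at or above the median level alone the medians were -0.15 for the basement membrane class, 0.137 for the cartilage class (1 gene) and -0.0467 for cross-linking genes. Among the 21 genes above, other probe sets had the opposite sign in Col5a3 (-0.073), Col9a3 (0.24) and Col12a1 (-0.09 and -0.047). All 141 other comparisons of these 21 genes kept direction and call. The causes were not tested.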

Other observations

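Outside the genes described above, the dim FACIT gene Col14a1, whose product binds type I fibrils, had the widest spread among controls of the "other" class, at 4.02, 5.27 and 5.32, with 4.45, 4.91 and 4.94 in the irradiated cultures. In Col14a1 the control of experiment 1 was the lowest of the 6 arrays, where it was the highest in Col1a1, Col12a1 and Col8a2. The other probe sets of Col14a1 (levels 4.30 and 3.34) differed by -0.28, -0.44 and 0.32 and by -0.19, -0.3 and 0.14, and the brightest by 0.43, -0.36 and -0.38. Only in experiment 2 did the 3 probe sets share a sign. Col14a1 was picked after its values were seen.

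In 2 of the 82 collagen probe sets, neither of them the brightest of its gene, the irradiated and control values did not overlap, 1 higher and 1 lower when irradiated; of all probe sets 3.77% were apart upwards and 4.63% downwards, so this count is no result about collagens. A Col9a3 probe set at level 2.38 was at 2.48, 2.52 and 2.41 in the controls and 2.36, 2.29 and 2.23 in the irradiated cultures, and a Col6a4 probe set at level 3.65 at 3.48, 3.51 and 3.66 against 3.79, 3.76 and 3.68. Both lie far below the median gene, and limma gave each a Benjamini-Hochberg adjusted p of 0.995.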
